A study of Bos taurus with 12 samples.

Results

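The late response of the bovine corpus luteum to prostaglandin F2α (PGF2α) was measured by comparing 4 RNA sequencing libraries from cows given PGF2α 12 h earlier with 4 libraries from cows given saline. These 8 of the 12 libraries of the series were chosen by their treatment labels and not by any measured value. The other 4 libraries, from cows collected 4 h post-PGF2α, entered the model fit to share its estimate of spread and are otherwise used only where 12 h is set beside 4 h. Each library was made from whole luteal tissue of 1 mixed-breed cow whose estrous cycle had been synchronized to day 10 of the luteal phase. Treated cows received a luteolytic dose of PGF2α by intramuscular injection and control cows received saline, and the glands of both groups were obtained by ovariectomy. The study's methods describe synchronization by earlier injections of PGF2α, and whether these cows, controls included, had them is not stated in the labels. Cows are the replicates (4 in each group) and carry the names in the labels, and the tissue is a mixture of steroidogenic, vascular, stromal and immune cells.

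The corpus luteum is the transient endocrine gland that forms from the ovulated follicle and secretes progesterone. It imports cholesterol, moves it into mitochondria with the StAR protein, cuts its side chain there with CYP11A1 and converts the product to progesterone with 3β-hydroxysteroid dehydrogenase. PGF2α from the uterus acts on luteal cells through the receptor encoded by PTGFR and brings about luteolysis, first a loss of progesterone secretion and then a loss of the tissue itself.

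Expression is given as TPM (transcript abundance corrected for transcript length and scaled to a fixed total) for levels, and as a log2 fold change of TMM-scaled counts (12 h over control) for differences. A gene is said to have risen or fallen when its Benjamini-Hochberg adjusted p was under 0.05 in edgeR's quasi-likelihood test of the 14481 genes that reached 10 counts in 4 or more libraries. Of these genes 3417 rose (23.6%) and 3665 fell (25.3%), so that 48.9% of the genes tested were called at 12 h. Any group of genes is therefore to be read against a background in which nearly every other gene was called. The rises reached further than the falls: 329 genes rose and 386 fell by more than 4-fold, whereas 63 rose and 12 fell by more than 16-fold. Scaled counts of the 4 treated and the 4 control cows did not overlap for 44.0% of genes.
Total expected counts ranged from 12471493 to 17880450 at 12 h and from 10263310 to 22600213 in controls. Each of the 12 libraries had a mean correlation with its own group (0.964 to 0.976) that exceeded its highest correlation with any library of another group (0.929 to 0.960). On the first principal component, which held 47.2% of the variance, the 12 h cows lay between 46.1 and 61.5 and the controls between -39.1 and -29.3. On that component cow 12H-6314 was the 12 h cow nearest to the controls. By correlation it was not: its highest correlation with a library of another group, 0.929, was the lowest of the 12 h cows. Cow 12H-6314 is named below wherever it alone decided a value.

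Genes of progesterone synthesis, STAR and HSD3B1, had the 2 largest losses of mean TPM among called genes. The mRNAs for StAR, 3β-hydroxysteroid dehydrogenase and the PGF2α receptor were at 0.0926 to 0.141 times their control TPM, and those for CYP11A1 and its electron donors fell less. In whole tissue, fewer luteal cells and less of the mRNA per cell cannot be told apart. STAR (chromosome 27, 33312972 to 33320397, ARS-UCD1.2) stood at 5318, 8752, 6052 and 7527 TPM in control cows C-4285, C-6464, C-7367 and C-7514. At 12 h it stood at 893, 426, 1551 and 1027 TPM in cows 12H-5266, 12H-6314, 12H-7382 and 12H-7475. Every treated cow lay below every control (log2 fold change -2.49, SE 0.37, adjusted p = 2.13e-04).
HSD3B1 (chromosome 3, 23706733 to 23717051), which encodes the enzyme that makes progesterone from pregnenolone, had 4090 to 7144 TPM in controls and 432 to 614 TPM at 12 h. The treated cows were close to one another and far from the controls (log2 fold change -3.15, SE 0.25, adjusted p = 5.56e-06). CYP11A1, the side-chain cleavage enzyme, went from 5530 ± 1112 to 2515 ± 654 TPM (SD, n = 4 each) and fell by 0.81 on the log2 scale of scaled counts (SE 0.24, adjusted p = 0.0147). Without control cow C-7514 its adjusted p was 0.0508.
The electron carriers that serve CYP11A1 fell too. Ferredoxin (FDX1) changed by -0.85 (SE 0.25, adjusted p = 0.0128) and ferredoxin reductase (FDXR) by -1.35 (SE 0.25, adjusted p = 8.14e-04). SCARB1, the receptor for HDL cholesterol, went from 5412 ± 1001 to 2898 ± 780 TPM (SD, n = 4 each) with no overlap between the groups in TPM, but the log2 fold change of -0.57 in scaled counts (SE 0.24, adjusted p = 0.0629) did not pass. Of the 14 genes of progesterone synthesis, 6 fell, 3 rose and 5 were not called. The sixth fall, HSD17B4 of peroxisomal β-oxidation (-0.21, SE 0.08, adjusted p = 0.0483), lost its call under 13 of the 18 alternatives. The rises were TSPO, a mitochondrial outer membrane protein linked to cholesterol import (0.68, SE 0.11), the aldose reductase gene AKR1B1 (0.68, SE 0.08) and the endosomal sterol transporter gene STARD3 (0.40, SE 0.08). The members thus had no common direction in scaled counts, with a median log2 fold change of -0.14, beside 0.01 for all genes. On the log2(TPM + 1) scale 1 member rose and 8 fell, where 10.4% and 38.9% of all genes did. The summed level of the list, in which abundant genes weigh most, was 20780 to 30710 TPM in controls and 5598 to 11080 TPM at 12 h.

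**Figure D1:**
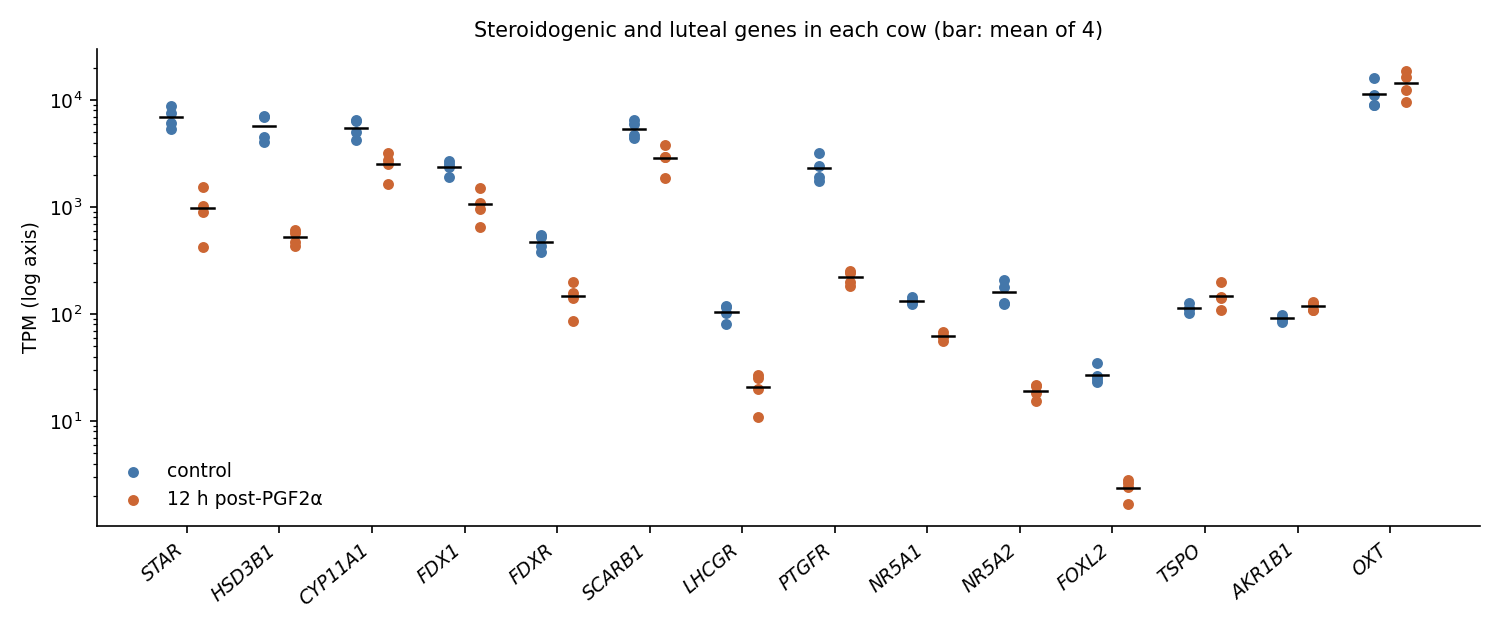
TPM (log axis) of 14 steroidogenic and luteal genes in each cow, 4 control cows (blue) and 4 cows 12 h post-PGF2α (orange), with a bar at each mean. STAR, HSD3B1, PTGFR, LHCGR, NR5A2 and FOXL2 show treated cows well below all controls, AKR1B1 lies slightly higher in all treated cows, and TSPO and OXT overlap between the groups in TPM.

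Receptors and transcription factors that mark luteal cells fell with the steroidogenic genes. Of 22 such genes tested, 10 fell (45.45%) and 2 rose (9.09%), beside 25.3% and 23.6% of all genes. The median log2 fold change was -0.61. PTGFR (chromosome 3, 66128213 to 66193803) had 1760, 1903, 3205 and 2418 TPM in controls and 198, 253, 245 and 185 TPM at 12 h, in the same order of cows. No treated cow came near the lowest control (log2 fold change -3.12, SE 0.26, adjusted p = 6.79e-06). LHCGR, the receptor for luteinizing hormone, had a mean of 105 TPM (SD 18.2) in controls and of 20.7 TPM (SD 7.17) in treated cows (-1.97, SE 0.30, adjusted p = 2.39e-04).
The transcription factor genes fell by unequal amounts. FOXL2, a forkhead factor of the granulosa lineage, was at 23.2 to 35.1 TPM in controls and at 1.67 to 2.80 TPM at 12 h (log2 fold change -3.21, SE 0.22, adjusted p = 2.42e-06). NR5A2, an orphan receptor that drives luteal steroidogenic genes, fell by 2.69 on the log2 scale (SE 0.23) and its relative NR5A1 by 0.79 (SE 0.14). Further falls were those of the prolactin receptor PRLR (-2.84), aromatase CYP19A1 (-2.79) and the estrogen receptor ESR1 (-1.98). GATA6 (-0.64) and GATA4 (-0.48), zinc finger factors of steroidogenic cells, also fell. The rises were INHBA, the activin A subunit (3.55, SE 0.44), and the progesterone-binding membrane protein PGRMC2 (0.53).
Not every abundant luteal mRNA was lower. OXT, which encodes the oxytocin precursor made by large luteal cells, had 9065, 8984, 16158 and 11141 TPM in controls and 18727, 9492, 12486 and 16538 TPM at 12 h. The groups overlapped and the log2 fold change of 0.67 (SE 0.27, adjusted p = 0.0570) did not pass. The lowest treated value was that of cow 12H-6314, and OXT passed without that cow (0.90, adjusted p = 0.00667) and without control cow C-7367 (0.92, adjusted p = 0.0144). INHA, the inhibin α subunit, also did not pass (-0.30, SE 0.17, adjusted p = 0.169).

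The libraries at 12 h were made up of shorter transcripts than those of controls. Weighted by TPM, transcripts had a mean length of 1728, 1628, 1674 and 1698 bases in control cows and of 1413, 1577, 1460 and 1464 bases in 12 h cows. All 4 treated cows lay below all 4 controls, with cow 12H-6314 the closest to them, and the means were 1682 ± 41.9 and 1479 ± 69.7 bases (SD, n = 4 each). An exact two-sided permutation test gave p = 0.0286, the smallest that 4 cows against 4 allow. Adjusted over a family of 13 library measures, it was 0.0619, and none of the 13 passed 0.05 after adjustment. Some further library measures were compared outside that family, without adjustment. The 4 h cows had 1622 to 1746 bases, which overlapped the control range and lay above every 12 h cow.
The difference was of like size when shifts between isoforms were left out. With 1 fixed length per gene the means were 1686 and 1474 bases, a difference of -211 bases. Among 5312 genes with several annotated transcripts and enough counts, the estimated transcript length was shorter by over 5% at 12 h in 184 and longer in 429. The length of the sequenced fragments cannot be read from these files, and RNA integrity was not tested.
The -211 bases were spread over many kinds of genes. Cytosolic ribosomal protein genes contributed -38.1 bases, the 13 mitochondrially encoded mRNAs -20.3 and other genes under 1000 bases -27.3. Genes of 2000 to 5000 bases outside those groups, whose share of TPM went from 26.8% to 20.7%, contributed -82.0, and genes over 5000 bases -41.2. STAR was the largest single gene, at -6.18 bases, followed by the cytochrome oxidase gene COX3 at -4.98 and the mevalonate pathway gene HMGCS1 at -4.27. When the mitochondrially encoded genes were left out, the means were 1832 and 1608 bases, and without the 50 most abundant genes they were 1916 and 1710 bases (unadjusted p = 0.0286 in each case, exact two-sided permutation test). The first of these was among the 13 measures (adjusted p = 0.0619 by the same test), and the second lay outside that family.

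**Figure D2:**
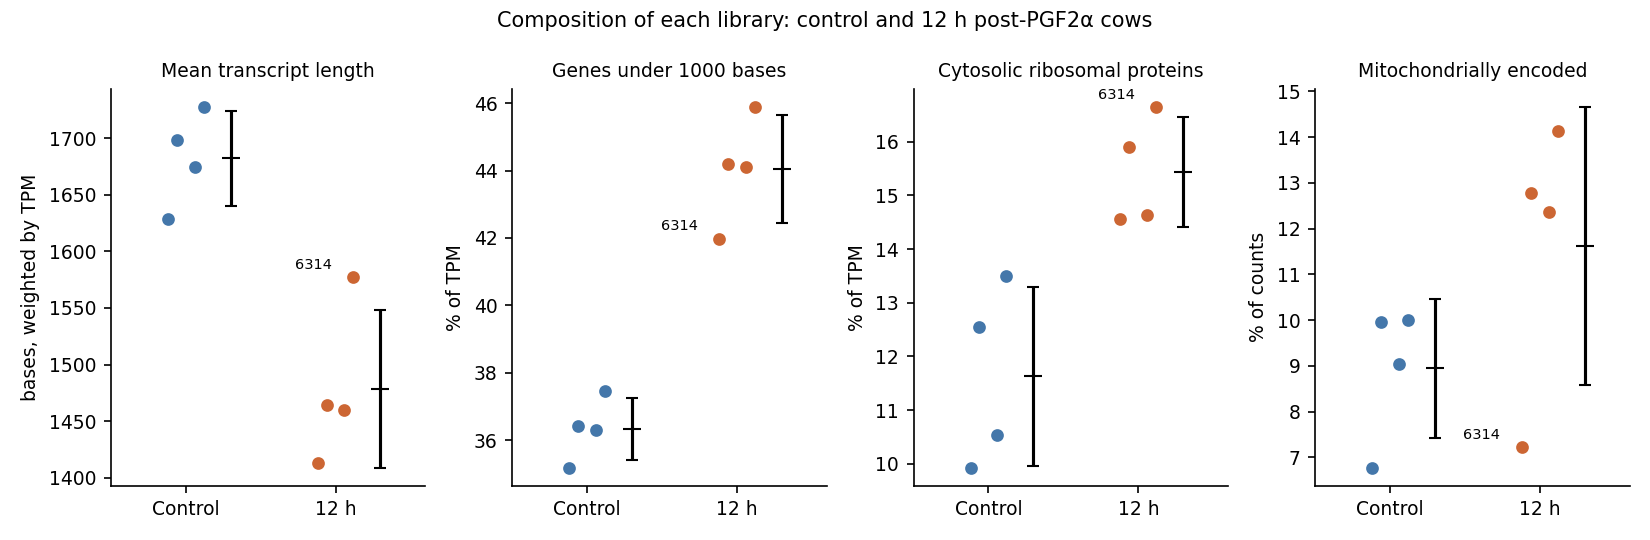
Mean transcript length in bases and the shares of TPM from genes under 1000 bases, of TPM from cytosolic ribosomal protein genes and of counts from mitochondrially encoded genes, in 4 control (blue) and 4 12 h cows (orange), with mean and SD beside each group. The groups are apart in the first 3 panels, and cow 12H-6314 lies among the controls for the mitochondrial share.

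Gene by gene, the longer the transcript, the lower its change at 12 h tended to be. The median log2 fold change went from 0.30 in 1645 genes under 1000 bases through -0.02 in 3889 genes of 2000 to 3000 bases to -0.50 in 220 genes over 8000 bases. In the shortest class 36.2% of genes rose and 12.0% fell, and in the longest 7.27% rose and 52.3% fell. The Spearman correlation of log2 fold change with length over the 14481 genes was -0.20, a description of these genes, which share libraries and depth.
The trend was present in each treated cow and differed in strength among them. Against the mean of controls, the median of genes over 8000 bases was lower than that of genes under 1000 bases by a log2 difference of -0.97, -0.44, -0.76 and -0.73 in cows 12H-5266, 12H-6314, 12H-7382 and 12H-7475. Each control cow, set against the mean of the other controls, gave -0.16 to 0.11. The 4 h cows, set against the mean of all controls, gave -0.16 to 0.38.
The trend held outside the short housekeeping genes but was not the same at all levels of expression. With ribosomal protein, respiratory chain and mitochondrially encoded genes left out, the 1534 remaining genes under 1000 bases had a median of 0.27. Short genes with a mean over 30 TPM had a median log2 fold change of 0.42 (746 genes), those with 5 to 30 TPM 0.11 (497 genes) and those under 5 TPM -0.03 (402 genes). Genes of 5000 bases and over had medians of -0.24, -0.35 and -0.42 in the same order. The median of long genes was thus below 0 at every level, and that of short genes was highest among abundant genes.

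**Figure D3:**
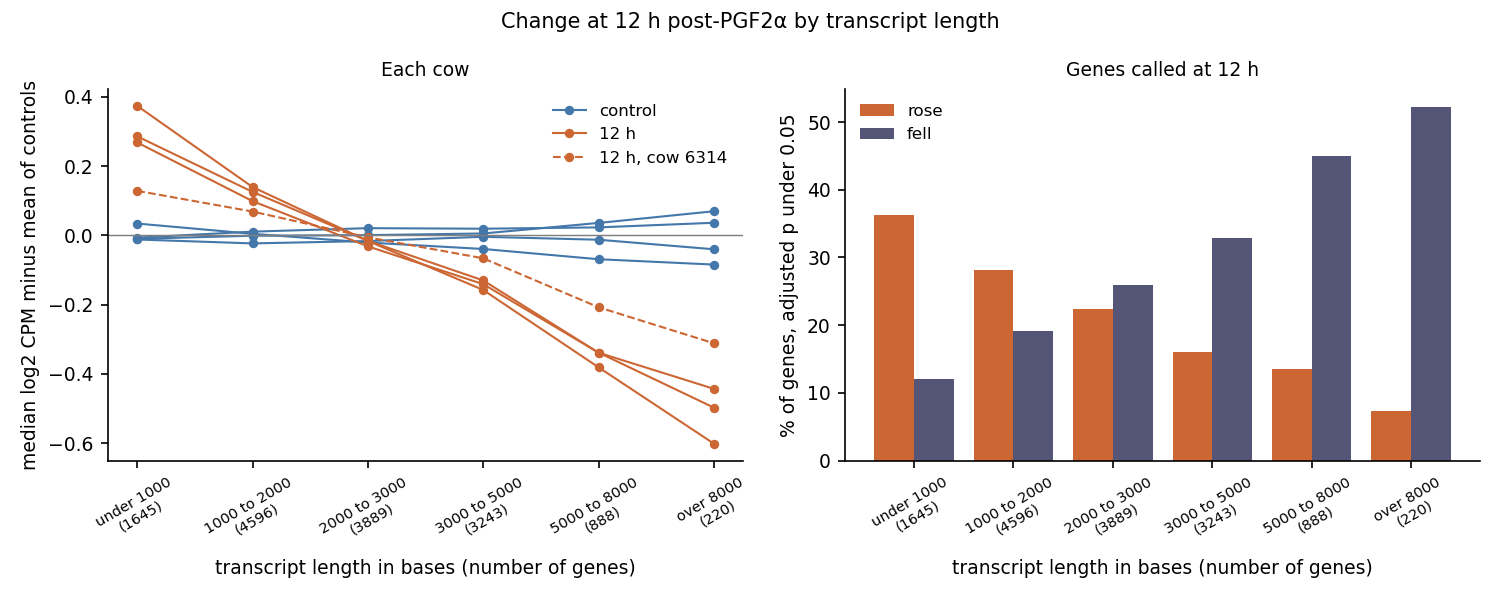
Left, median log2 CPM of each cow minus the mean of controls in 6 classes of transcript length, with 4 control cows (blue), 4 12 h cows (orange) and cow 12H-6314 dashed; right, the percentage of genes in each class that rose or fell at 12 h. The 12 h lines run from above 0 in short genes to between -0.31 and -0.60 in genes over 8000 bases, and the control lines stay within 0.1 of 0.

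The trend did not fix the direction of single genes. Among long transcripts that rose were XIRP1 (4.55 on the log2 scale), an actin-binding repeat protein (6272 bases, 0.305 ± 0.153 to 5.47 ± 2.87 TPM, SD, n = 4 each), and COL7A1 (2.35), a collagen of anchoring fibrils (7794 bases). Among short transcripts, falls reached -3.42 for TGFA, a ligand of the EGF receptor (770 bases), -2.82 for the potassium channel domain protein gene KCTD12 (981 bases) and -2.26 for TLCD4 (803 bases). TLCD4 went from 196 ± 52.1 to 33.0 ± 8.91 TPM (SD, n = 4 each). XIRP1, KCTD12 and TLCD4 were chosen after their values were seen. When each library's own trend with length was taken out by an offset in the model, 6771 genes (46.8%) were called, 3474 higher and 3297 lower, of which 6087 were called in the same direction without the offset and 3 in the opposite one.
The mRNAs for large proteins of chromatin mostly fell. Of 40 chromatin remodellers and histone methyltransferases, with a median length of 6946 bases, 29 fell and 1 rose, and with the length offset 15 fell and 8 rose. KMT2A, a histone H3 lysine methyltransferase of 11466 bases on chromosome 15, had 6.02 to 7.40 TPM in controls and 1.53 to 2.30 TPM at 12 h. It fell by 1.47 on the log2 scale (SE 0.18, adjusted p = 4.89e-05), and by 0.92 with the offset. The acetyltransferase gene EP300 fell by 1.03 (SE 0.11, adjusted p = 2.00e-05), and by 0.66 with the offset. KDM3A, a histone demethylase, was the single gene that rose (0.45).

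Almost all cytosolic ribosomal protein genes, which encode the protein part of the ribosome and have short mRNAs, rose together. Of 80 tested, 79 rose, beside 23.6% of all genes, and none fell, RPL15 being the exception (0.18). In 78 the scaled counts lay above all controls in all 4 treated cows, beside 21.0% of all genes. The median log2 fold change was 0.72. The genes took 9.93% to 13.5% of TPM in controls and 14.6% to 16.6% at 12 h (p = 0.0286 by the exact two-sided permutation test, or 0.0619 adjusted over the 13 measures). RPL36A had 870, 886, 717 and 731 TPM in controls and 1099, 1364, 1387 and 1198 TPM at 12 h, with no overlap. The log2 fold change of RPL36A was 0.90 (SE 0.11, adjusted p = 6.16e-05). RPL38 (0.82, SE 0.12) and RPS13 (0.75, SE 0.10) were similar.
With the length offset 76 rose and on the log2(TPM + 1) scale 57 did, with none falling on either scale. On that TPM scale, tested with limma, the median of all genes was -0.25 and 49.3% of genes were called, of which 1509 were higher (10.4%) and 5631 lower (38.9%) at 12 h against 3417 and 3665 in scaled counts. Relative to the median of all genes, the ribosomal protein genes were at 0.71 in scaled counts, 0.66 on the TPM scale and 0.49 with the length offset. Cow 12H-6314 had the largest ribosomal share, 16.6%.

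The mitochondrial genome was less clear. Mitochondrially encoded mRNAs, which code for subunits of the respiratory chain and of ATP synthase, took 6.77%, 9.95%, 10.0% and 9.05% of counts in the control cows. At 12 h they took 14.1%, 7.22%, 12.4% and 12.8%. The share was above all controls in 3 of the 4 treated cows and within the control range in cow 12H-6314. The means of 8.94% ± 1.51 and 11.6% ± 3.04 (SD, n = 4 each) were not separated by the test (p = 0.143, exact and two-sided, and 0.169 adjusted over the 13 measures). Without cow 12H-6314 the difference was 4.15 percentage points (exact permutation p = 0.0286, the smallest that 4 cows against 3 allow). Without any 1 of the other cows the same test gave p from 0.171 to 0.314. As a share of TPM the means were 16.8% ± 2.41 and 19.2% ± 4.11 (p = 0.371, exact two-sided permutation test). In that share cow 12H-6314, at 13.2%, lay just below the lowest control, at 13.4%.
Of the 13 genes, 5 rose and none fell, beside 23.6% of all genes that rose. The cytochrome oxidase gene COX3 (mitochondrial genome, 8970 to 9750) had 14160, 15693, 20374 and 16487 TPM in controls and 26804, 15772, 22451 and 23713 TPM at 12 h. Cow 12H-6314 was among the controls and the other 3 treated cows were above them (log2 fold change 0.74, SE 0.22, adjusted p = 0.0150). The other rises were the complex I genes ND1 (0.71) and ND3 (0.59), the oxidase gene COX2 (0.64) and the ATP synthase gene ATP6 (0.58). COX1, the most abundant, did not pass (0.46, SE 0.27, adjusted p = 0.184).
Estimates for the 13 genes ranged from 0.06 to 0.74 on the log2 scale, and differences among them were not tested. The entries of ND4L (10239 to 10535) and ND4 (10529 to 11906) overlap, and ND4 stood at 0.46 (SE 0.23). ND5 (0.06, SE 0.25) and ND4L (0.06, SE 0.23) stood at the low end, with means of 4015 and 3621 TPM at 12 h and 4845 and 4371 TPM in controls. The number of rises depended on the cows and the scale. It was 11 without cow 12H-6314, 2 with the length offset, 2 with only the 8 libraries in the fit (47.4% of all genes called), 7 by DESeq2 and 0 by limma on the log2(TPM + 1) scale, where 3 of the 13 were below 0 and the median was 0.16. At an unadjusted p under 0.05 in scaled counts 7 of the 13 passed.

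**Figure D4:**
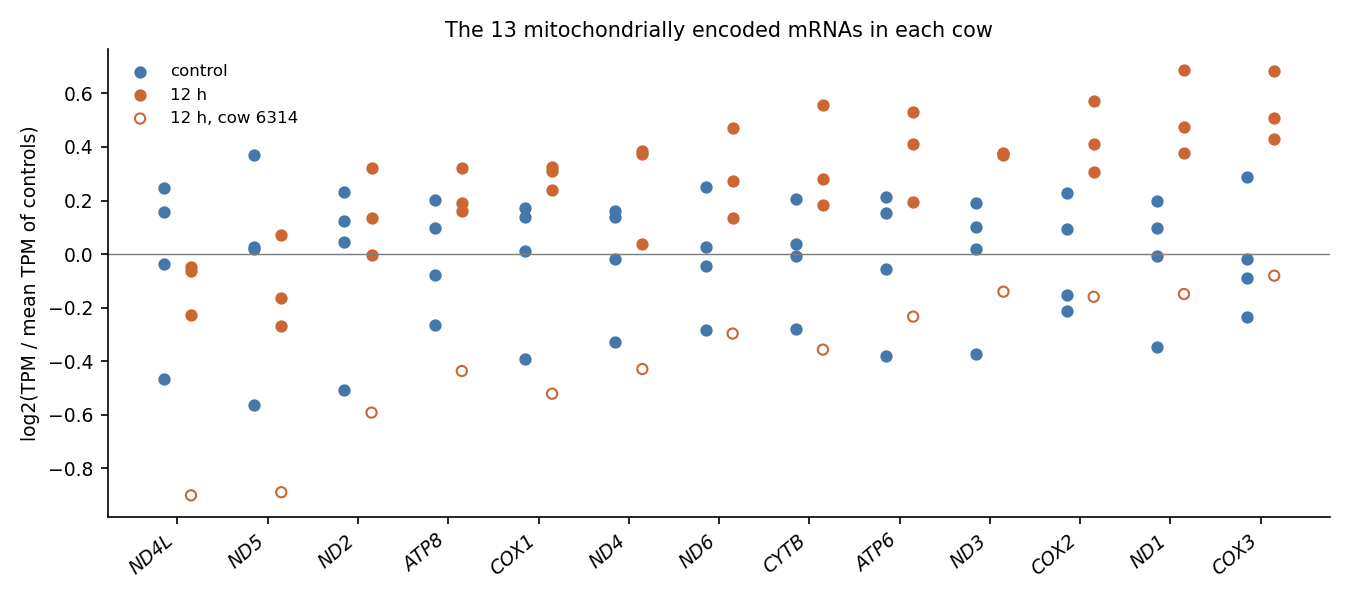
Log2 ratio of TPM to the mean of the 4 controls for the 13 mitochondrially encoded mRNAs, ordered by log2 fold change in scaled counts, in 4 control (blue) and 4 12 h cows (orange), with cow 12H-6314 as open circles. For COX3, ND1 and COX2 the other 3 treated cows lie above all controls while cow 12H-6314 lies among them. For ND4L, ND5, ND2, ND4, ND6, COX1, CYTB and ATP8 cow 12H-6314 lies below all controls.

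Nuclear genes of mitochondria did not share a direction. Of 81 nuclear-encoded respiratory chain genes, 17 rose (21.0%) and 9 fell (11.1%), beside 23.6% and 25.3% of all genes. On the log2(TPM + 1) scale 1 rose and 32 fell. The members that rose had a median length of 526 bases and those that fell 1633 bases. NDUFS1, the largest subunit of complex I (3338 bases), had 74.3 to 102 TPM in controls and 33.4 to 40.1 TPM at 12 h and fell by 0.96 (SE 0.14, adjusted p = 2.14e-04). The small ATP synthase subunit gene ATP5MPL (290 bases) rose by 0.53 (SE 0.10, adjusted p = 7.01e-04). With the length offset 4 rose and 13 fell, and without cow 12H-6314 41 rose and 6 fell.
Genes of the mitochondrial ribosome gave a like picture, with 18 of 76 that rose (23.7%) and 12 that fell (15.8%) in scaled counts. Over all genes the shares were 23.6% and 25.3%. On the log2(TPM + 1) scale 4 rose and 33 fell. MRPL15, a large subunit protein (2364 bases), went from 33.7 ± 2.64 to 15.5 ± 1.48 TPM (SD, n = 4 each; log2 difference of scaled counts -0.82, SE 0.10, adjusted p = 6.40e-05), and MRPL52 (980 bases) rose by 0.74 (SE 0.10). Proteasome subunit genes counted 12 rises (32.4%) and 6 falls (16.2%) of 37, and 1 and 16 on the TPM scale. For these 3 lists the counts therefore turned with the scale, and their medians in scaled counts lay 0.11 to 0.15 above that of all genes.

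The largest rises at 12 h were of genes almost silent in the control gland. IGFBP1, which binds insulin-like growth factors, had 1 count over the 4 controls and 739 at 12 h, a ratio of count rates of 862 (95% exact interval 154 to 34100, counting error only). NEFM, a neurofilament gene, had 3 and 437 counts, a ratio of 170 (57.8 to 827). MEPE, a matrix phosphoglycoprotein gene, had 4 counts in controls and 194 to 955 in each treated cow.
CD24 and OPALIN were measurable in every control. CD24, a mucin-like surface glycoprotein gene, had 0.37 to 0.50 TPM in controls and 111, 102, 91.1 and 117 TPM at 12 h (log2 fold change 8.19, SE 0.32, adjusted p = 6.32e-08). OPALIN, a membrane protein gene known from oligodendrocytes, had 0.44 to 0.78 TPM in controls and 38.2, 31.0, 36.3 and 34.1 TPM at 12 h, which made the 4 treated cows closely alike (6.68, SE 0.34, adjusted p = 3.10e-07). Both genes were higher at 12 h than at 4 h, by 3.76 and 4.78 on the log2 scale (adjusted p = 2.49e-06 for each in the direct comparison of 12 h with 4 h, in which 46.7% of genes were called). The rule also named the neuropeptide genes GAL and CCK, the serpin gene SERPINA14, the immune receptor gene CTLA4, the collagenase MMP1 and the elastase MMP12, MYOM2, GPRC5A, the alarmin IL33 and the proton pump gene ATP12A, with ratios of count rates from 29.9 for ATP12A to 160 for GAL. Of these, CCK, CTLA4, MYOM2 and ATP12A had 0 counts in at least 1 control, and 5, 7, 12 and 15 counts over the 4 controls.
For some of these the direct comparison of 12 h with 4 h did not pass. IL33 stood at 2.22 to 3.59 TPM in controls and at 160, 70.1, 103 and 89.2 TPM at 12 h (5.50, SE 0.36), and it differed from 4 h by 0.02 (SE 0.29, adjusted p = 0.953). GAL differed from 4 h by 0.63 (adjusted p = 0.183) and CTLA4 by 0.06 (adjusted p = 0.894).

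The 15 largest falls among well-measured genes reached from -4.53 to -3.42. PRUNE2 (chromosome 8, 52760745 to 52887222) had 13.4, 23.6, 32.2 and 23.1 TPM in controls and 0.86, 0.57, 1.19 and 0.58 TPM at 12 h, so that the highest treated cow was far under the lowest control (-4.53, SE 0.51, adjusted p = 3.19e-05). GLDN, an adhesion protein gene of nodes of Ranvier, was the most abundant of the 15, at 188 to 611 TPM in controls and 16.7 to 28.2 TPM at 12 h (-3.74, SE 0.42).
PPARGC1B, a coactivator of mitochondrial biogenesis (-3.48, SE 0.34), was lower in all 4 treated cows than in any control. Others among the 15 were ZNF750, ADGRF2, WDR72, GNAO1, LGI3, USH1C, NF1, SMRP1, ABLIM1 and TGFA. At 4 h, against the same controls, PRUNE2 stood at 0.05 and ABLIM1 at -0.14, whereas ADGRF2 (-1.33, adjusted p = 0.00382) and USH1C (-1.25, adjusted p = 0.0375) were already lower. Set directly against 4 h, PRUNE2 differed at 12 h by -4.57 (adjusted p = 4.01e-05).

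Among called genes, the largest gains of mean TPM at 12 h were of short, very abundant mRNAs, COX1 and OXT being left out since they were not called. Beside the mitochondrially encoded COX3, COX2, ATP6, ND3 and ND1, they were those of the actin-binding peptide thymosin β4, apolipoprotein A1 and the ferritin heavy chain. TMSB4X (chromosome X, 130698907 to 130701055) had 2633, 2865, 2129 and 2307 TPM in controls and 5168, 6922, 5493 and 5310 TPM at 12 h. All treated cows were far above the highest control (1.51, SE 0.12, adjusted p = 5.56e-06). FTH1, the iron-storing ferritin heavy chain, went from 2865 ± 452 to 5264 ± 138 TPM (SD, n = 4 each; 1.19, SE 0.13). APOA1 overlapped between the groups (0.62, SE 0.20, adjusted p = 0.0234) and was lost with the length offset (adjusted p = 0.0730).
Among the 8 largest losses were STAR, HSD3B1, GSTA1, CYP11A1, PTGFR, HMGCS1 and FDX1. GSTA1, a glutathione transferase that can also isomerize steroid precursors, had 4253, 3939, 4231 and 3838 TPM in controls and 840, 336, 1024 and 1591 TPM at 12 h (-1.74, SE 0.41, adjusted p = 0.00361). The controls were close to one another, and the treated cows varied more, with cow 12H-6314 lowest.

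Most lists of matrix remodelling and inflammation had more rises than falls, which antigen presentation and collagen chains did not. Of 21 matrix proteases and inhibitors, 11 rose (52.4%, beside 23.6% of all genes) and 1 fell, with a median log2 fold change of 0.72. Of 20 matricellular and hyaluronan genes 10 rose (50%) and 2 fell (10%), with a median of 0.74. SPP1, which encodes the secreted adhesion protein osteopontin, had 151, 44.4, 114 and 74.7 TPM in controls and 1425, 1540, 2021 and 2116 TPM at 12 h (4.53, SE 0.42, adjusted p = 1.19e-05). PLAUR, the urokinase receptor (2.49, SE 0.28), the membrane protease gene MMP14 (1.65, SE 0.18) and the matricellular gene CCN2 (2.20, SE 0.38) also rose.
Of 23 cytokines and chemokines, 9 rose (39.1%) and 2 fell (8.70%), beside 23.6% and 25.3% of all genes. The monocyte attractant CCL2 (2.05, SE 0.39) and IL18 (1.24, SE 0.26) were among the rises. Of 17 NF-kB genes 6 rose (35.3%) and 1 fell (5.88%). Of 21 complement genes 4 rose (19.05%, below the share of all genes) and 1 fell (4.76%). Of 16 antigen presentation genes none rose and 2 fell (12.5%), the peptide transporter genes TAP1 (-0.83) and TAP2 (-0.28). For antigen presentation 3 genes had an unadjusted p under 0.05 by edgeR, and limma called none higher and 5 lower. On the log2(TPM + 1) scale complement counted 2 rises and 3 falls, and CD46, a complement inhibitor that rose in scaled counts (0.34, SE 0.08), had the opposite sign (-0.10).
Most markers of myeloid cells rose in the same tissue, and those of lymphocytes had no common direction. Of 11 macrophage and monocyte markers tested, 7 rose (63.6%, beside 23.6% of all genes) and none fell. Their summed level was 314 to 515 TPM at 12 h and 136 to 339 TPM in controls. Of 8 neutrophil markers 5 rose (62.5%) and none fell, and the 3 not called were not above 0, the lowest at -0.60. The summed level was 85.4 to 256 TPM at 12 h and 18.3 to 55.2 TPM in controls. Most of it came from S100A12, S100A9 and S100A8, with means of 105, 31.1 and 18.7 TPM at 12 h and 12.0, 4.09 and 3.99 TPM in controls. Of 12 T and NK lymphocyte markers 2 rose (16.7%), GZMA and NKG7, and 9 were below 0 without passing, among them CD4 (-1.25, adjusted p = 0.0700) and PRF1 (-0.72, adjusted p = 0.0620). The median of this list was -0.44 and the summed level overlapped, at 74.7 to 151 and 29.8 to 136 TPM. GZMA, a granzyme of cytotoxic lymphocytes, had 2.02, 6.36, 1.44 and 2.31 TPM in controls and 32.3, 17.2, 55.1 and 104 TPM at 12 h (4.40, SE 0.63, adjusted p = 1.57e-04). It was also higher at 12 h than at 4 h (4.86, adjusted p = 1.18e-04). Of 6 erythrocyte markers only HBA was abundant enough to test and it rose (1.13 and 4.47 mean TPM), the summed level being 2.72 to 4.62 TPM in controls and 3.39 to 12.7 TPM at 12 h. Among 4 B lymphocyte markers 2 rose without separating the groups. One was MS4A1, with 0.61 to 0.90 TPM in controls and 0.43, 0.59, 13.8 and 1.15 TPM at 12 h, a rise (2.78, adjusted p = 0.0331) that was lost without cow 12H-7382 (0.25, adjusted p = 0.705), by limma on log2(TPM + 1) (adjusted p = 0.285) and without any 1 of the controls. Of the platelet markers ITGA2B rose (0.92) and GP9 and GP1BB were at 0 in all 8 cows. How much of the rise of inflammatory genes these cells carried was not tested.
Stromal and vascular markers overlapped between the groups in summed level. It was 545 to 839 TPM in controls and 464 to 945 TPM at 12 h for endothelial markers, 668 to 2119 and 930 to 5139 TPM for pericyte and smooth muscle markers, and 6939 to 20610 and 6721 to 19290 TPM for fibroblast markers. Of 10 fibroblast markers 5 rose (50%, beside 23.6% of all genes) and none fell (median 0.58). The surface protease FAP (2.44, SE 0.48) and the surface glycoprotein THY1 (0.94, SE 0.24) were among the rises. On the log2(TPM + 1) scale 1 fibroblast marker rose. Of 12 endothelial markers 3 rose (25%) and 1 fell (8.33%), and the 10 pericyte and smooth muscle markers counted 2 rises (20%) and 1 fall (10%). How much of the rise of matrix genes moved with these cells was not tested. Smooth muscle actin (ACTA2) reached 3816 TPM in cow 12H-6314 and 554 to 1170 TPM in the other 12 h cows, so that its rise (1.83, adjusted p = 0.0292) was lost without that cow (1.04, adjusted p = 0.124), and also without control cow C-6464 (0.0646), C-7367 (0.0755) or C-7514 (0.0647, adjusted p in each case).

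Single genes of vessel growth and low oxygen changed strongly in both directions. VEGFA, the main angiogenic ligand (chromosome 23, 17281915 to 17297193), had 198, 176, 252 and 245 TPM in controls and 23.5, 18.4, 27.2 and 17.6 TPM at 12 h (-2.98, SE 0.20, adjusted p = 2.31e-06). Its receptor genes FLT1 (-1.64, SE 0.15) and KDR (-1.14, SE 0.14) fell as well. ADM, which encodes the vasodilator adrenomedullin, moved the other way, from 135 to 249 TPM in controls to 532 to 740 TPM at 12 h (2.10, SE 0.20, adjusted p = 1.19e-05). Of 24 angiogenic genes 5 rose (20.8%) and 7 fell (29.2%), near the shares of 23.6% and 25.3% over all genes. Of 18 hypoxia targets 7 rose (38.9%) and 2 fell (11.1%). Among glycolysis genes, 4 of 24 rose (16.7%) and 3 fell (12.5%).
Of 27 genes of the TGF-β and activin list 8 rose (29.6%), 4 fell (14.8%) and 15 were not called. TGFB1 (2.35, SE 0.26), the activin subunits INHBB (2.41, SE 0.27) and INHBA (3.55, SE 0.44) were above all controls in all 4 cows, and ID2, a helix-loop-helix inhibitor induced by BMPs, fell from 204 ± 57.3 to 49.4 ± 11.4 TPM (SD, n = 4 each; -1.75, SE 0.21). Of 30 collagen chains 4 rose (13.3%) and 6 fell (20%), with COL13A1 at -3.17 (SE 0.30) and COL7A1 at 2.35 (SE 0.36).

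Lists of cell death, lysosomes and autophagy held more rises than falls. GADD45A, a growth arrest and DNA damage gene (chromosome 3, 77648760 to 77651872), had 29.5, 32.3, 23.8 and 28.3 TPM in controls and 165, 185, 195 and 128 TPM at 12 h (2.87, SE 0.15, adjusted p = 3.10e-07). CCND1, cyclin D1, went the other way, from 14.2 ± 2.66 to 1.64 ± 0.554 TPM (SD, n = 4 each; -2.83, SE 0.27), and the cell cycle inhibitor CDKN1B rose (1.27, SE 0.12). In all 4 of 32 cell cycle genes rose and 8 fell (25%, beside 25.3% of all genes).
Of 32 apoptosis genes 14 rose (43.75%) and 5 fell (15.6%), beside 23.6% and 25.3% of all genes, with a median of 0.35. The death receptor FAS (1.36, SE 0.15) and the pore-forming BAX (0.99, SE 0.11) rose, and XIAP, an inhibitor of caspases, fell from 12.0 ± 1.10 to 2.20 ± 0.632 TPM (SD, n = 4 each; -2.10, SE 0.19, adjusted p = 1.15e-05). Of 40 lysosomal genes 19 rose (47.5%) and 3 fell (7.5%), with a median of 0.40. The proton pump gene ATP6V0D1 had 170 to 217 TPM in controls and 360 to 481 TPM at 12 h (1.39, SE 0.14), and the α-galactosidase gene GLA fell (-1.78, SE 0.14). Without cow 12H-6314, 28 of the lysosomal genes rose.
Of 33 autophagy genes 17 rose (51.5%) and 6 fell (18.2%), beside 23.6% and 25.3% of all genes. WIPI1, a phosphoinositide-binding protein of early autophagosomes (1.44, SE 0.12), and GABARAPL2, which coats them (1.21, SE 0.13), rose, whereas UVRAG, a regulator of vesicle maturation, fell from 59.8 ± 12.2 to 7.41 ± 0.415 TPM (SD, n = 4 each; -2.71, SE 0.19, adjusted p = 2.47e-06). These lists kept more rises than falls with the length offset. On the log2(TPM + 1) scale apoptosis counted 8 of each and autophagy 13 rises and 12 falls.

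Single stress genes changed in both directions. The integrated stress response genes PPP1R15A (1.59, SE 0.16) and DDIT3 (1.23, SE 0.15) rose, while the sensors of unfolded protein ATF6 (-1.90, SE 0.25) and ERN1 (-2.48, SE 0.35) fell. The list of 27 held 8 rises (29.6%) and 7 falls (25.9%), near the shares of 23.6% and 25.3% over all genes. Among 20 heat shock chaperones 6 fell (30%) and 3 rose (15%). HSPA1A, the inducible chaperone, fell from 202 ± 53.5 to 47.3 ± 10.9 TPM (SD, n = 4 each; -1.77, SE 0.23), and the small chaperone gene CRYAB rose, with 22.1 ± 4.36 TPM in controls and 142 ± 3.05 TPM at 12 h (SD, n = 4 each; 2.98, SE 0.36).
Of 31 antioxidant genes 12 rose (38.7%) and 7 fell (22.6%). Thioredoxin (TXN) had 706 to 868 TPM in controls and 1717 to 1995 TPM at 12 h (1.54, SE 0.13), the ferritin light chain FTL rose (1.37, SE 0.15) and the sulfiredoxin gene SRXN1 fell (-1.58, SE 0.21).
Of 23 early response transcription factors 11 rose (47.8%) and 2 fell (8.70%) at 12 h, beside 23.6% and 25.3% of all genes. ATF3 rose, with 3.66 to 9.45 TPM in controls and 39.3 to 89.5 TPM at 12 h (3.48, SE 0.34). FOS (2.57, SE 0.42) and JUN (1.06, SE 0.17) also rose. FOSB stood 1.90 above controls (SE 0.34), against 7.33 at 4 h (SE 0.35).
Of 20 cytoskeletal genes 7 rose (35%) and 5 fell (25%), beside 23.6% and 25.3% of all genes. TMSB10 (0.86, SE 0.12) rose beside TMSB4X, and the tubulin gene TUBA1C fell from 325 ± 64.8 to 68.0 ± 8.47 TPM (SD, n = 4 each; -1.94, SE 0.18).

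Genes that handle RNA were split by the scale. Of 52 translation factors 21 rose (40.4%) and 6 fell (11.5%), and of 67 splicing factors 25 rose (37.3%) and 7 fell (10.45%). Over all genes the shares were 23.6% and 25.3%. On the log2(TPM + 1) scale the numbers were instead 9 and 19, and 3 and 19. The members that fell in scaled counts had longer transcripts, with medians of 3610 and 2162 bases, than those that rose, with 1213 and 1595 bases. EIF4G3, a scaffold of translation initiation (5558 bases), fell by 0.96 (SE 0.10), PRPF8, the core splicing protein (7398 bases), by 0.66 (SE 0.09), and SNRPB2, a small spliceosomal protein (1090 bases), rose by 0.92 (SE 0.09). EIF5 was a long exception that rose (4372 bases, 0.60, SE 0.09). Of 265 ZNF zinc finger genes 52 rose and 69 fell, near the shares in all genes, and their median was -0.02.

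**Figure D5:**
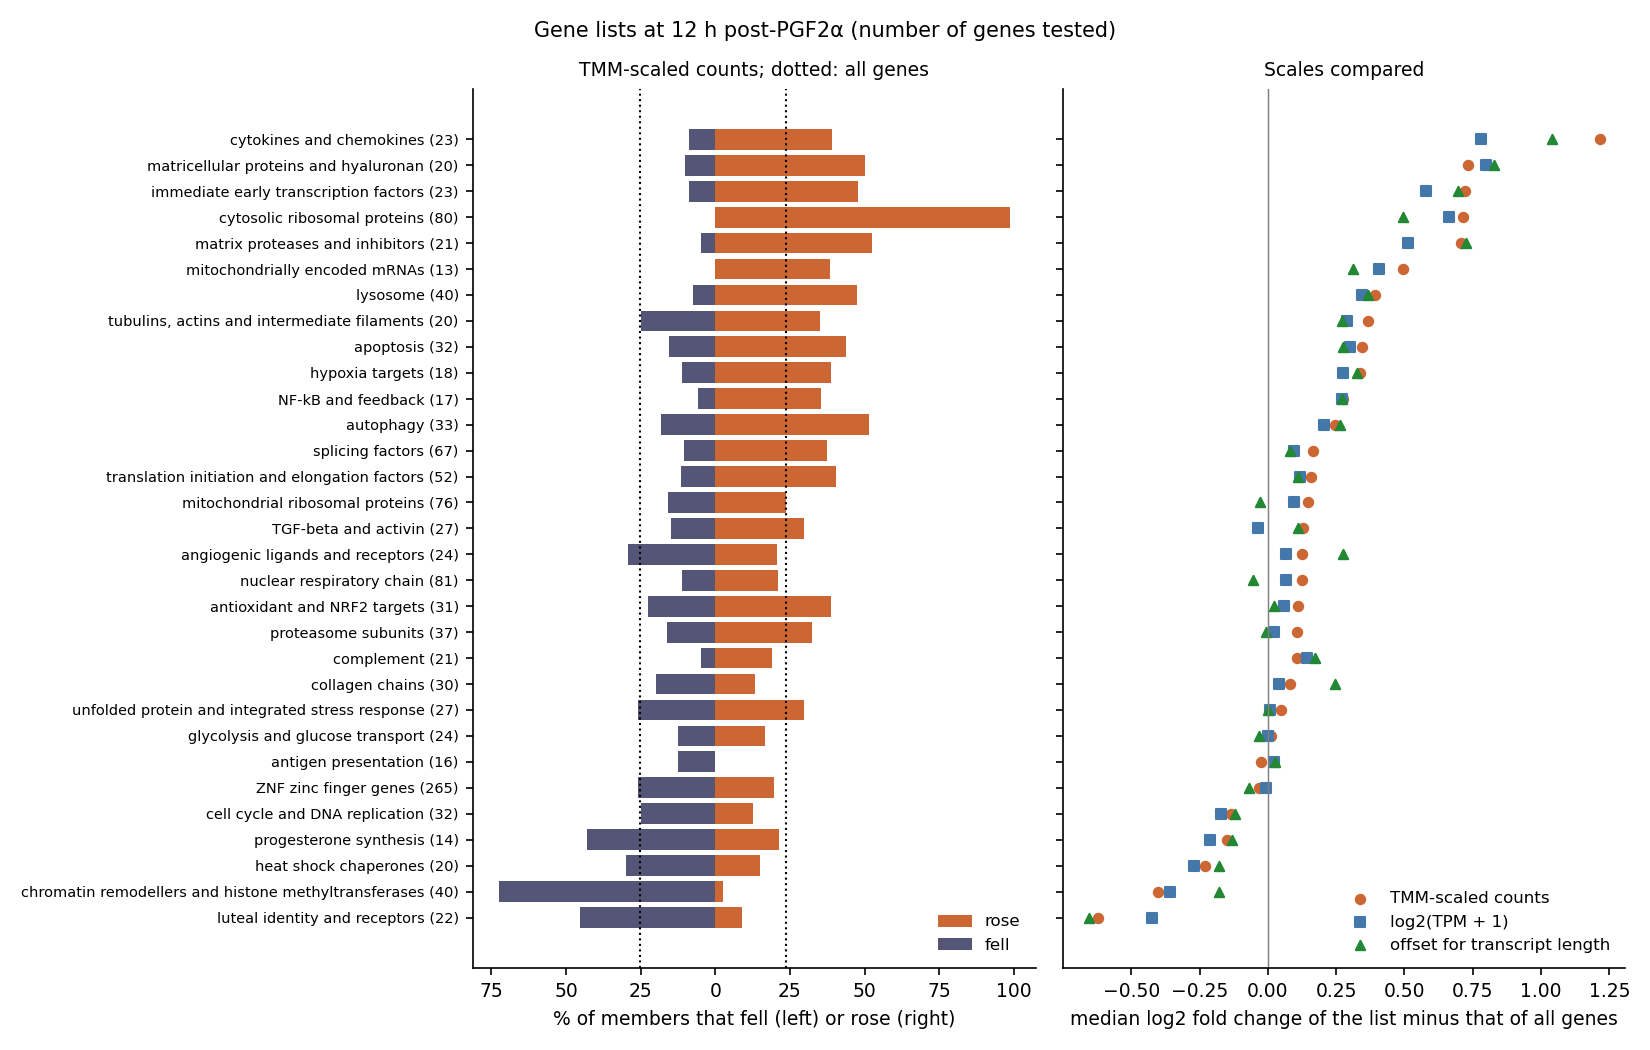
Left, percentage of the tested members of 31 gene lists that rose (orange) or fell (dark) at 12 h in scaled counts, with dotted lines at the shares over all genes, 23.6% and 25.3%; right, the median log2 fold change of each list minus that of all genes on 3 scales. Ribosomal protein genes and chromatin remodellers stand out at left, and the nuclear respiratory chain, mitochondrial ribosome and proteasome lists lie near 0 on every scale at right.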

How the data were processed

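Per the labels, total RNA was extracted from luteal tissue with Trizol. The submitters' processing notes name the aligner STAR 2.5, RSEM 1.3 and the build ARS-UCD1.2. The authors deposited 1 table per cow with the expected counts, TPM and transcript lengths estimated for 27270 genes. Library preparation was not given in the sources used here. Expected counts were rounded, scaled by TMM and tested with edgeR 4.0.16 over all 3 groups (no covariate), and SEs are the absolute log2 fold change over the root of F. Library measures were compared by exact permutation tests. Gene lists and members were chosen with earlier results of these data known. Genes named are the 15 largest rises and falls (unique symbol, mean of at least 5 CPM, groups apart), the 8 largest gains and losses of TPM, mitochondrial and steroidogenic genes, and up to 4 of each list by p. Some of these genes are not reported here. The edgeR fit was tested on simulated data. Alternatives used DESeq2 1.42.0, limma 3.58.1 on log2(TPM + 1) and log2(TPM + 0.1), RLE scaling, other count minimums, a spline offset for length (5 degrees of freedom) and subsets of libraries and genes. Leaving out the cows 4H-6455 and 12H-6314 together was added after seeing the data. Scripts ran in Python 3.11.15 (scipy 1.17.1 for tests, matplotlib 3.10.9 for plots) and R 4.3.3.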

Additional observations from a re-analysis of the deposited data

Results flagged for a closer look

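Of the 172 groups of 4 tested, 7 held a cow well away from its group, where chance alone would give about 1 in 20. Among 12 h cows, cow 12H-6314 had 30023 TPM of COX1, against 50882 to 54019 in the others, and 11814 TPM of ND3, against 16837 to 16917. Cow 12H-7475 of the same group had 6.54 TPM of NEFM, against 1.82 to 2.46. Among controls, cow C-6464 had a mean transcript length without mitochondrially encoded genes of 1777 bases, against 1847 to 1852, cow C-7514 had 7.72 TPM of SERPINA14, against 2.65 to 3.29, and cow C-7367 had 1.92 TPM of GAL, against 1.24 to 1.31. IGFBP1 was at 0.04 TPM in cow C-7367 and at 0 in the other controls.
Effects at 12 h and at 4 h differed by a direct test in 6764 of the 14481 genes.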

How the results depend on the processing

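The scale had the most effect. On log2(TPM + 1) 1509 genes rose and 5631 fell, and on log2(TPM + 0.1) 1543 and 5666. CD46 then had the opposite sign (-0.10 and -0.11). All other alternatives kept both counts within 1.5 times. Leaving out a cow gave 2832 to 3611 rises and 3032 to 3511 falls.
The length trend had a rho of -0.30 among genes with a mean of at least 10 TPM, and the median difference between the longest and shortest classes was -0.56 on log2(TPM + 1) instead of -0.80. Weighted by expected counts, mean length differed by -279 bases (exact permutation test, p = 0.0571), and with a cow left out by -236 to -182 bases (exact permutation p = 0.0571 without any 1 control, the smallest being 0.0286). The mitochondrial share differed by 1.84 to 4.15 percentage points with a cow left out.
Among the 207 named genes an alternative took the call from 0 to 24 and added 0 to 9.
Depth limits the genes with few control counts. No paired analysis applied, since each library came from a different cow.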

Other observations

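Among the short transcripts that rose were β-defensin genes of a multigene family, EBD (0.67 to 13.9 mean TPM) and DEFB4A (3.92 to 65.9 mean TPM), whereas the entry named DEFB fell (95.9 to 16.3 mean TPM). Reads of such near-identical genes can be split between entries, and these values are uncertain.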
